A study of Mus musculus with 3 samples.

Results

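The IL-1 family and inflammasome genes described here are *Il1a*, *Il1b*, *Il1rn*, *Il1r2*, *Il1rap*, *Il18*, *Nlrp3* and *Casp1*, 8 of the 32285 genes of the count matrices. They were chosen by name as ligands, antagonist, receptor chains and inflammasome components, with earlier results of these data known. The study concerned the states of type 1 conventional dendritic cells (cDC1s) in tumours of MCA205 LA OVA, a fibrosarcoma line that is grafted into mice and carries the model antigen OVA. Precursors of conventional dendritic cells (pre-cDCs), cDC1s and cDC2s were sorted from tumours on day 5, mixed, and sequenced as 3 droplet-based single-cell libraries, 1 per genotype. For WT, 25 male and 12 female mice (37 in all) were pooled. For sGSN-/- it was 15 male and 16 female mice (31), and for sGSN-/-Clec9a-/- it was 10 male and 17 female mice (27). The sGSN-/- mice lack secreted gelsolin, and the sGSN-/-Clec9a-/- mice in addition lack DNGR-1, the receptor that *Clec9a* encodes. All 3 groups shared the tumour line, the day, the sorting gates, the C57BL/6J background and a period of co-housing, and the mice of the study were aged 6 to 20 weeks, with no age given for each pool. The pools were sorted in parallel on several machines, and a machine that handled 1 genotype alone cannot be told apart from that genotype. As each pool gave 1 library, mice cannot be told apart within a library. Values for the 3 libraries are given in the order WT, sGSN-/- and sGSN-/-Clec9a-/- throughout.

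The genotype labels were checked on the targeted genes. *Clec9a* was counted in cDC1s at 168, 168 and 0.0931 CPM, the number of unique molecular identifiers (UMIs) of a gene for every 1000000 UMIs of the same cells. The 2 *Clec9a* UMIs of the sGSN-/-Clec9a-/- cDC1s set this library apart from the other libraries, as its label says. *Gsn*, the gene of gelsolin, was at 152, 169 and 167 CPM, and these counts do not check the sGSN-/- label, because secreted and cytoplasmic gelsolin share the gene and are counted together.

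The libraries held 12763, 8173 and 9273 barcodes with 176578136, 109270958 and 113411930 UMIs. A deposited table placed 2316, 1712 and 1778 of them in 12 clusters of cDC1s, with a median of 14092, 14150 and 12231 UMIs per cell. Outside the table, barcodes with 5 or more *C1qa* UMIs form the *C1qa* group (1874, 764 and 1085 barcodes, median 16536.5, 18922 and 16754 UMIs). Those with 2 or more *Cd209a* UMIs and no *C1qa* UMI form the *Cd209a* group (2677, 1189 and 1576 barcodes, median 13402, 12753 and 11239 UMIs). The groups are named by the gene that gates them and not as cell types, and 11 cDC1s of the table also carried 5 or more *C1qa* UMIs. None of the 8 genes was used in a gate. Between libraries, 26 barcode sequences were shared by WT and sGSN-/-, 28 by WT and sGSN-/-Clec9a-/- and 27 by sGSN-/- and sGSN-/-Clec9a-/-, and they were kept as separate cells. Doublets were kept. The automatic threshold of Scrublet, a doublet caller, marked 466, 0 and 0 barcodes and was not used, and results without the 6% of barcodes with the highest scores of each library were computed as an alternative. Such barcodes made up 1.6%, 0.993% and 1.74% of cDC1s, 10.9%, 12.2% and 11.4% of the *C1qa* group and 8.26%, 10.3% and 8.5% of the *Cd209a* group.

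Marker lists describe what the gates hold. The macrophage list, with 8 of 8 genes counted, summed to 7377, 6201 and 6018 CPM in the *C1qa* group, where *C1qb* was the most abundant (2517 CPM), against 307, 244 and 328 CPM in the *Cd209a* group and 77.7, 48.1 and 61.2 CPM in cDC1s. The cDC2 list of 6 genes summed to 932, 1008 and 948 CPM in the *C1qa* group and to 1236, 1257 and 1182 CPM in the *Cd209a* group, with *Mgl2* the most abundant in both, against 37.3, 35.3 and 37.1 CPM in cDC1s. So the *C1qa* group carried macrophage and cDC2 transcripts together, and the part of mixed barcodes in this was not tested. The cDC1 list of 6 genes, led by *Irf8*, summed to 2267, 2212 and 2139.9 CPM in cDC1s, to 289.96, 346 and 352 CPM in the *C1qa* group and to 312, 428 and 362 CPM in the *Cd209a* group. The pan-cDC list (*Flt3*, *Zbtb46*, *Dpp4*) summed to 375, 357 and 367 CPM in cDC1s, 67.8, 74.96 and 75.12 CPM in the *C1qa* group and 186, 189.6 and 166 CPM in the *Cd209a* group. The monocyte list of 7 genes was at 1967, 2130.4 and 2290.2 CPM in the *C1qa* group (*Fn1* most abundant), 1623, 1891 and 1938 CPM in the *Cd209a* group and 758, 901 and 872 CPM in cDC1s (*Plac8* most abundant in both).

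Transcripts of neutrophils, a cell type known to carry *Il1b* and *Il1r2*, were at or near 0. Their list of 7 genes summed to 0.398, 0.424 and 0.14 CPM in cDC1s, 5.04, 4.0 and 4.01 CPM in the *C1qa* group and 1.35, 1.58 and 1.33 CPM in the *Cd209a* group. *Csf3r* was the most abundant in all 3 populations, *S100a9*, *Retnlg*, *Mmp9* and *Ly6g* were at 0 in cDC1s and in the *C1qa* group, and *S100a8* and *Retnlg* were at 0 in the *Cd209a* group. The NK list of 6 genes summed to 71.8, 121 and 82.0 CPM in cDC1s, 225, 264 and 282 CPM in the *C1qa* group and 723, 819 and 752 CPM in the *Cd209a* group, led by *Klrd1* in each. The pDC list of 3 genes, led by *Siglech*, was at 74.9, 163 and 91.6 CPM in the *Cd209a* group, 8.23, 8.15 and 13.0 CPM in the *C1qa* group and 6.46, 8.87 and 8.15 CPM in cDC1s. The T cell list of 5 genes stayed at or below 5.3 CPM in the cDC1s, 14.9 CPM in the *C1qa* group and 42.2 CPM in the *Cd209a* group of any library. The B cell list reached at most 0.679 CPM, the mast cell and basophil list 3.09 CPM and the tumour and fibroblast list 1.65 CPM in any of the 3 populations of any library.

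NK cells served as the background for detection. They were gated as barcodes outside the table with 2 or more *Ncr1* UMIs and no *C1qa* or *Cd209a* UMI (614, 948 and 700 barcodes, median 11040.5, 9344.5 and 7577.5 UMIs). The NK list, which holds the gate gene *Ncr1* itself, summed to 6196, 6534 and 7203 CPM in them, with *Gzma* the most abundant (3368 CPM). *Il1b* was at 242, 249 and 358 CPM in this *Ncr1* group, its median cell held 0 *Il1b* UMIs, and the 10% of cells with the most held 84.8%, 86.1% and 92.5% of them. High Scrublet scores marked 7.0%, 7.28% and 7.0% of the *Ncr1* group, and the part of doublets in its *Il1b* was not tested. Shares of cells with a UMI are compared after each cell was thinned to 3000 UMIs, which left out 210 of the 5806 cDC1s, 63 of the 3723 cells of the *C1qa* group, 147 of the 5442 of the *Cd209a* group and 136 of the 2262 of the *Ncr1* group. Intervals of single libraries are exact 95% intervals (Clopper-Pearson for shares, Poisson for counts) and cover counting error only.

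IL-1α, IL-1β and IL-18 are cytokines of the IL-1 family that signal through receptor chains with a shared intracellular domain and the adaptor MyD88. IL-1β and IL-18 are made as precursors and cut by caspase-1, which becomes active on the inflammasome, a complex that sensors such as NLRP3 form with the adaptor ASC. The pathway is held in check by a receptor antagonist and a decoy receptor, and myeloid cells of tumours are a known source of its ligands.

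Populations were compared on UMIs summed per library and population, so that the 3 libraries are the replicates (n = 3) and their SD also holds any difference between genotypes. All 8 genes passed the filter on low counts. In the *C1qa* group against cDC1s, 7 genes were higher and 1, *Il18*, was lower, where 33.9% of the 12839 genes tested were higher and 32.9% lower. In the *Cd209a* group against cDC1s, 7 were again higher and *Il18* lower, where 30.6% of all genes were higher and 27.9% lower. Between the *C1qa* and the *Cd209a* group, 3 were higher in the first (*Il1a*, *Il1rn*, *Nlrp3*, with 18.3% of all genes) and 2 lower (*Il1r2*, *Il1rap*, with 17.7%). The median log2 fold change of the 8 genes was 1.27, 1.18 and 0.12 in the 3 comparisons, and that of all genes 0.00, 0.01 and 0.00. As the 8 genes were chosen with earlier results of these data known, their counts and medians beside those of all genes are a description. Scaling to library size without TMM factors moved the median of all genes to 0.17 in both comparisons with cDC1s, and the share of calls that were higher from 50.8% to 66.2% for the *C1qa* group and from 52.4% to 70.0% for the *Cd209a* group. The changes below are relative to the median gene, and none of the 8 genes changed direction against cDC1s under that scaling.

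**Figure D1:**
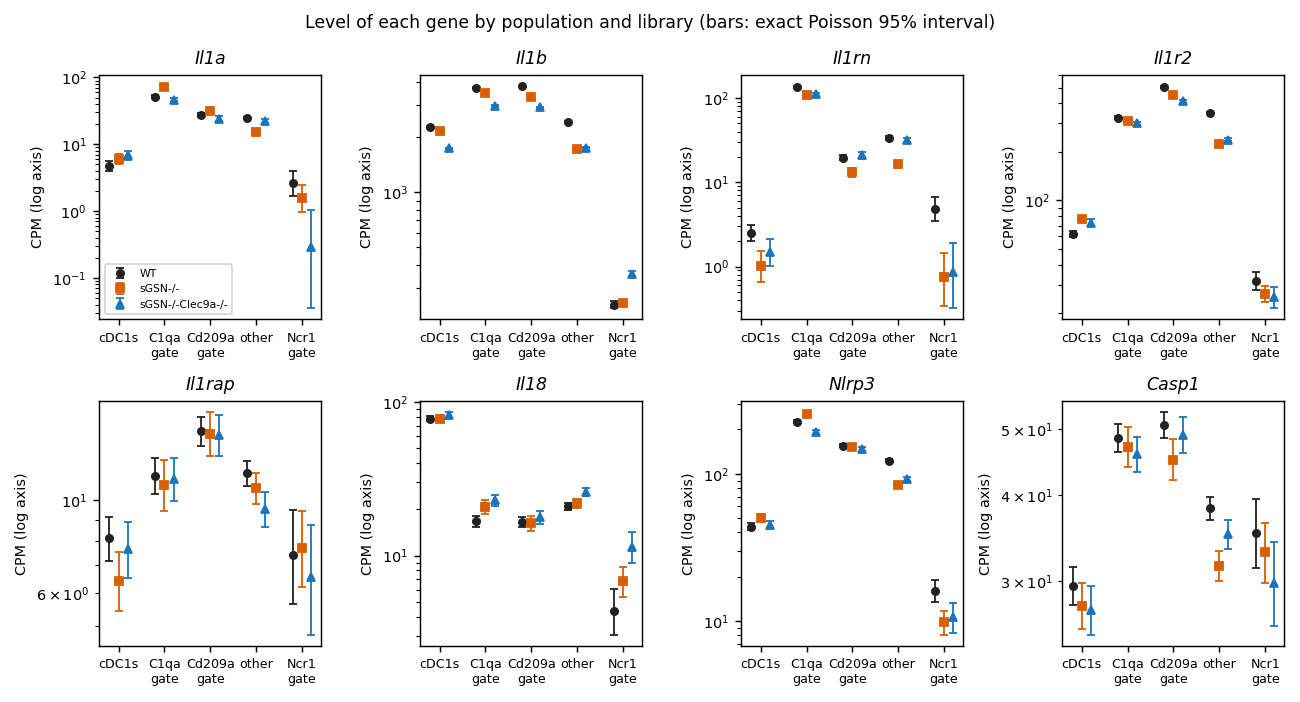
CPM of each gene (log axis) in cDC1s, the *C1qa* group, the *Cd209a* group, other barcodes outside the table and the *Ncr1* group, 1 point per library with its exact 95% Poisson interval. *Il18* is highest in cDC1s (78.1 to 82.3 CPM), *Il1rn* in the *C1qa* group (108 to 136 CPM) and *Il1r2* in the *Cd209a* group (410.1 to 507 CPM).

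*Il1a* encodes IL-1α, a ligand of the IL-1 receptor that is active without cleavage by caspase-1. It was counted at 51.5, 71.5 and 46.4 CPM in the *C1qa* group, 27.4, 31.5 and 24.0 CPM in the *Cd209a* group and 4.74, 6.03 and 6.85 CPM in cDC1s. The 3 populations did not overlap, and the sGSN-/- library was the highest in both gated groups. *Il1a* was 8.58-fold higher in the *C1qa* group (56.4 ± 13.3 CPM, SD, n = 3) than in cDC1s (5.87 ± 1.06 CPM), with a log2 fold change of 3.10 (SE 0.18), higher in 3 of 3 libraries, and an adjusted p of 3.2e-08 in the quasi-likelihood test of edgeR with Benjamini-Hochberg adjustment. The *Cd209a* group (27.6 ± 3.77 CPM) lay between them, 4.24-fold above cDC1s (log2 fold change 2.09, SE 0.18, higher in 3 of 3 libraries, adjusted p = 1.5e-06 in the same edgeR quasi-likelihood test with Benjamini-Hochberg adjustment). Against the *Cd209a* group, *Il1a* was 2.02-fold higher in the *C1qa* group in 3 of 3 libraries (log2 1.02, SE 0.15, edgeR quasi-likelihood test with Benjamini-Hochberg adjustment, adjusted p = 0.00036). Few cells carried most of the *Il1a* UMIs. In the *C1qa* group 436, 219 and 296 cells held any, and the 10% of cells with the most held 81.0%, 76.2% and 74.0%. The share of cells with an *Il1a* UMI was 23.3%, 28.7% and 27.3% in the *C1qa* group, 3.89%, 5.14% and 4.61% in cDC1s and 1.95%, 1.16% and 0.286% in the *Ncr1* group. Thinned, it was 9.2%, 12.1% and 8.75%, then 1.23%, 1.84% and 1.83%, then 0.669%, 0.338% and 0.156%. In WT the interval of the cDC1s (0.822% to 1.78%) overlapped that of the *Ncr1* group (0.183% to 1.7%), so *Il1a* in WT cDC1s is not read as above background.

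*Il1b* encodes the precursor of IL-1β. It was at 3740.05, 3505 and 2983 CPM in the *C1qa* group, 3813, 3316 and 2918 CPM in the *Cd209a* group and 2273, 2166 and 1735 CPM in cDC1s. In each population WT was the highest and sGSN-/-Clec9a-/- the lowest, the gated groups overlapped each other, and cDC1s lay below both. *Il1b* was 1.47-fold higher in the *C1qa* group (3409 ± 387 CPM, SD, n = 3) than in cDC1s (2058 ± 285 CPM) in 3 of 3 libraries (log2 0.56, SE 0.11, adjusted p = 0.00096, the quasi-likelihood test of edgeR with Benjamini-Hochberg adjustment). The *Cd209a* group (3349 ± 448 CPM) was 1.46-fold higher than cDC1s in 3 of 3 libraries (log2 0.54, SE 0.11, adjusted p = 0.0014 by the quasi-likelihood test of edgeR with Benjamini-Hochberg adjustment). No difference between the gated groups passed the threshold (log2 0.01, SE 0.11, edgeR quasi-likelihood test with Benjamini-Hochberg adjustment, adjusted p = 0.94, higher in 2 of 3 libraries). Detection was broad. *Il1b* UMIs were in 92.7%, 90.01% and 85.3% of cDC1s, and after thinning in 81.9%, 79.6% and 75.1%, against 48.0%, 46.5% and 34.1% of the *Ncr1* group before thinning and 19.4%, 22.8% and 18.1% after. The median cDC1 held 19, 18 and 12 *Il1b* UMIs, and the 10% of cDC1s with the most held 36.1%, 35.8% and 37.3% of them, so the transcript was not held by a few cDC1s alone. The median cell of the *C1qa* group held 56, 63.5 and 49 *Il1b* UMIs, and that of the *Cd209a* group 40, 29 and 27.

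*Il18* encodes the precursor of IL-18 and went the other way. It was at 78.1, 78.2 and 82.3 CPM in cDC1s, 16.7, 20.8 and 22.9 CPM in the *C1qa* group and 16.7, 16.2 and 17.7 CPM in the *Cd209a* group. The 3 libraries of cDC1s lay close together and far above both gated groups, which overlapped. Against cDC1s (79.5 ± 2.41 CPM, SD, n = 3), *Il18* was 4.49-fold lower in the *C1qa* group (20.1 ± 3.17 CPM, log2 -2.17, SE 0.11) in 3 of 3 libraries, with an adjusted p of 8.1e-09 in the quasi-likelihood test of edgeR with Benjamini-Hochberg adjustment. It was 5.27-fold lower in the *Cd209a* group (16.9 ± 0.748 CPM, log2 -2.40, SE 0.11) in 3 of 3 libraries (adjusted p = 7.4e-09, the quasi-likelihood test of edgeR with Benjamini-Hochberg adjustment). The cDC1s held 48.8%, 51.3% and 45.3% of all *Il18* UMIs of a library, with 18.5%, 21.6% and 18.9% of its UMIs. Between the gated groups the difference in *Il18* did not pass the threshold (log2 0.23, SE 0.11, higher in the *C1qa* group in 3 of 3 libraries, adjusted p = 0.12, the quasi-likelihood test of edgeR with Benjamini-Hochberg adjustment). It did with the library as a block (log2 0.21, adjusted p = 0.033 in the quasi-likelihood test of edgeR with Benjamini-Hochberg adjustment, higher in 3 of 3 libraries) and without the WT library (log2 0.35, adjusted p = 0.045 in that edgeR test, higher in 2 of 2 libraries), in a range of adjusted p from 0.033 to 0.43 over the alternatives. *Il18* UMIs were in 52.6%, 48.9% and 50.8% of cDC1s and 3.75%, 4.85% and 5.86% of the *Ncr1* group, and thinned in 19.7%, 18.1% and 19.8% and 0.502%, 1.35% and 1.72%. The gated groups, thinned, gave 4.3%, 4.4% and 5.33% (*C1qa*) and 3.92%, 3.96% and 4.25% (*Cd209a*), above the *Ncr1* group in each library.

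*Il1rn* encodes the IL-1 receptor antagonist, which binds the receptor without signalling. It was counted at 136, 108 and 110.2 CPM in the *C1qa* group, 19.5, 13.1 and 20.9 CPM in the *Cd209a* group and 2.51, 1.02 and 1.49 CPM in cDC1s. The *C1qa* group stood far above the other populations in each library, and the cDC1s lay below the *Ncr1* group in WT and overlapped its counting intervals in the other libraries (4.85, 0.753 and 0.872 CPM in the *Ncr1* group). The folds against cDC1s are taken over a level that is read as background. *Il1rn* was 59.9-fold higher in the *C1qa* group (118 ± 15.8 CPM, SD, n = 3) than in cDC1s (1.67 ± 0.762 CPM) in 3 of 3 libraries (log2 5.90, SE 0.25, adjusted p = 3.2e-09 by the quasi-likelihood test of edgeR with Benjamini-Hochberg adjustment). The *Cd209a* group (17.8 ± 4.13 CPM) was 9.23-fold higher than cDC1s in 3 of 3 libraries (log2 3.21, SE 0.27, adjusted p = 1.2e-06, the quasi-likelihood test of edgeR with Benjamini-Hochberg adjustment) and 6.49-fold lower than the *C1qa* group in 3 of 3 libraries (log2 of *C1qa* against *Cd209a* 2.70, SE 0.19, adjusted p = 1.4e-06, same edgeR test). With cells thinned to 3000 UMIs these log2 fold changes of the *Cd209a* group against cDC1s and of the *C1qa* against the *Cd209a* group were 2.51 and 3.34. Of the *Il1rn* UMIs of a library, 61.3%, 65.5% and 58.0% were in the *C1qa* group, which held 20.6%, 17.2% and 21.5% of all UMIs. *Il1rn* UMIs were in 52.2%, 50.5% and 51.2% of the *C1qa* group, 2.76%, 0.993% and 1.29% of cDC1s and 2.77%, 0.949% and 0.857% of the *Ncr1* group. After thinning the shares were 23.6%, 21.6% and 21.8%, then 0.794%, 0.245% and 0.53%, then 0.502%, 0.451% and 0.468%, and *Il1rn* in the sum of cDC1s is read as background. The antagonist and the ligand were also set side by side within both gated groups. For every 1000 *Il1b* UMIs there were 36.4, 30.8 and 36.9 *Il1rn* UMIs in the *C1qa* group and 5.12, 3.96 and 7.15 in the *Cd209a* group.

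The gate itself uses *C1qa*, so the level of *Il1rn* across *C1qa* counts was also read. Just outside the gate, with 1 to 4 *C1qa* UMIs, *Il1rn* was at 42.9, 30.4 and 64.0 CPM, and just inside, with 5 to 9, at 82.0, 100.4 and 84.9 CPM. With 100 or more *C1qa* UMIs it was at 144, 119.7 and 108 CPM. *Il1r2*, the decoy receptor, was at 381, 363 and 302 CPM just outside, 479, 424 and 353 CPM just inside and 173, 201 and 191 CPM with 100 or more *C1qa* UMIs, so within the gate the cells with the most *C1qa* had the least *Il1r2*. For the *Cd209a* gate, *Il1r2* was at 473, 368 and 372 CPM in cells with 1 *Cd209a* UMI and at 526, 495 and 467 CPM in those with 2 to 3. It was at 556, 466 and 402 CPM with 4 to 9 and at 461, 412 and 386 CPM with 10 or more, so *Il1r2* did not go up steadily with *Cd209a*.

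*Il1r2* encodes the decoy receptor, which binds IL-1 and does not signal. Its levels were 507, 447 and 410.1 CPM in the *Cd209a* group, 326, 311 and 300.2 CPM in the *C1qa* group and 61.8, 76.9 and 72.8 CPM in cDC1s. The 3 populations did not overlap, and WT was the highest library in both gated groups and the lowest in cDC1s. *Il1r2* was 5.76-fold higher in the *Cd209a* group (455 ± 48.8 CPM, SD, n = 3) than in cDC1s (70.5 ± 7.79 CPM) in 3 of 3 libraries (log2 2.53, SE 0.10, adjusted p = 2.6e-09, the quasi-likelihood test of edgeR with Benjamini-Hochberg adjustment). In the *C1qa* group (312 ± 13.0 CPM) it was 3.93-fold higher than in cDC1s in 3 of 3 libraries (log2 1.97, SE 0.10, adjusted p = 8.6e-09 by the quasi-likelihood test of edgeR with Benjamini-Hochberg adjustment). The *C1qa* group was 1.47-fold lower than the *Cd209a* group in 3 of 3 libraries (log2 -0.55, SE 0.09, adjusted p = 0.00071, the quasi-likelihood test of edgeR with Benjamini-Hochberg adjustment). *Il1r2* UMIs were in 38.2%, 40.7% and 32.7% of cDC1s and 14.7%, 10.9% and 8.0% of the *Ncr1* group, and thinned in 13.7%, 17.4% and 14.8% and in 5.69%, 3.61% and 3.74%. The gated groups held them in 44.0%, 44.3% and 43.4% (*C1qa*) and 55.9%, 49.2% and 47.8% (*Cd209a*) of thinned cells. Both gated groups and the cDC1s were thus above the background in each library.

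*Il1rap* encodes the accessory chain that IL-1 receptor complexes need to signal. It was at 14.6, 14.4 and 14.3 CPM in the *Cd209a* group, 11.5, 10.9 and 11.3 CPM in the *C1qa* group and 8.11, 6.41 and 7.64 CPM in cDC1s, and at 7.39, 7.69 and 6.54 CPM in the *Ncr1* group. The cDC1s overlapped the *Ncr1* group, and as NK cells may hold *Il1rap* transcripts of their own, this does not tell background from expression in cDC1s. The *Cd209a* group (14.5 ± 0.152 CPM, SD, n = 3) was 1.75-fold above cDC1s (7.39 ± 0.878 CPM) in 3 of 3 libraries (log2 0.81, SE 0.09, adjusted p = 1.7e-05, the quasi-likelihood test of edgeR with Benjamini-Hochberg adjustment). The *C1qa* group (11.2 ± 0.297 CPM) was 1.34-fold above cDC1s in 3 of 3 libraries (log2 0.42, SE 0.09, adjusted p = 0.0019 in the quasi-likelihood test of edgeR with Benjamini-Hochberg adjustment), a call that was lost with cells thinned to 3000 UMIs (log2 0.03, adjusted p = 0.97, in a range from 0.00013 to 0.97 over the alternatives). It was 1.30-fold below the *Cd209a* group in 3 of 3 libraries (log2 -0.38, SE 0.09, adjusted p = 0.0062, the quasi-likelihood test of edgeR with Benjamini-Hochberg adjustment). After thinning, *Il1rap* UMIs were in 3.04%, 2.02% and 2.36% of cDC1s and 2.17%, 2.93% and 1.25% of the *Ncr1* group, and unthinned in 9.8%, 7.48% and 7.82% and in 8.96%, 8.44% and 5.71%. The thinned share of the *C1qa* group (2.53%, 2.67% and 3.04%) also overlapped that of the *Ncr1* group in each library. Its CPM intervals lay above those of the *Ncr1* group in WT (10.4 to 12.6 against 5.65 to 9.49 CPM) and sGSN-/-Clec9a-/- (9.97 to 12.7 against 4.77 to 8.75 CPM) and met them in sGSN-/- (9.43 to 12.5 against 6.2 to 9.44 CPM).

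*Nlrp3* encodes the inflammasome sensor. It was at 225, 256 and 192 CPM in the *C1qa* group, 155, 151 and 148 CPM in the *Cd209a* group and 43.8, 50.2 and 44.9 CPM in cDC1s. The populations did not overlap, and the spread between libraries was largest in the *C1qa* group. *Nlrp3* was 4.29-fold higher in the *C1qa* group (224 ± 31.7 CPM, SD, n = 3) than in cDC1s (46.3 ± 3.43 CPM) in 3 of 3 libraries (log2 2.10, SE 0.09, adjusted p = 2.6e-09, the quasi-likelihood test of edgeR with Benjamini-Hochberg adjustment). The *Cd209a* group (151 ± 3.78 CPM) was 2.93-fold higher than cDC1s in 3 of 3 libraries (log2 1.55, SE 0.09, adjusted p = 4.6e-08 by the quasi-likelihood test of edgeR with Benjamini-Hochberg adjustment). The *C1qa* group exceeded the *Cd209a* group 1.47-fold in 3 of 3 libraries (log2 0.55, SE 0.08, adjusted p = 0.00037, the quasi-likelihood test of edgeR with Benjamini-Hochberg adjustment). *Nlrp3* UMIs were in 82.6%, 85.3% and 79.2% of the *C1qa* group, 69.0%, 60.9% and 62.5% of the *Cd209a* group, 36.6%, 39.5% and 33.5% of cDC1s and 9.28%, 6.33% and 6.14% of the *Ncr1* group. Thinned, the shares were 43.0%, 48.0% and 40.9%, then 31.8%, 27.6% and 31.2%, then 11.3%, 13.3% and 12.8%, then 3.01%, 1.35% and 1.87%, with the same order of populations.

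*Casp1* encodes caspase-1, the protease of the inflammasome. It was at 48.5, 47.0 and 45.9 CPM in the *C1qa* group, 50.7, 45.1 and 49.1 CPM in the *Cd209a* group, 29.5, 27.6 and 27.2 CPM in cDC1s and 35.3, 33.0 and 29.8 CPM in the *Ncr1* group. The gated groups overlapped and lay above cDC1s, and the cDC1s did not lie above the *Ncr1* group in any library. *Casp1* was 1.49-fold higher in the *C1qa* group (47.2 ± 1.29 CPM, SD, n = 3) than in cDC1s (28.1 ± 1.21 CPM) in 3 of 3 libraries (log2 0.57, SE 0.07, adjusted p = 1.4e-05, the quasi-likelihood test of edgeR with Benjamini-Hochberg adjustment). It was 1.54-fold higher in the *Cd209a* group (48.3 ± 2.88 CPM) in 3 of 3 libraries (log2 0.62, SE 0.07, adjusted p = 9.5e-06, the quasi-likelihood test of edgeR with Benjamini-Hochberg adjustment). Between the gated groups no difference passed the threshold (log2 -0.05, SE 0.07, lower in 2 of 3 libraries, adjusted p = 0.6, the quasi-likelihood test of edgeR with Benjamini-Hochberg adjustment). *Casp1* UMIs were in 30.7%, 29.3% and 27.0% of cDC1s and 34.2%, 28.9% and 23.6% of the *Ncr1* group, and thinned in 8.73%, 8.59% and 7.42% and in 10.7%, 10.9% and 8.42%. NK cells may hold *Casp1* transcripts of their own, so this does not tell background from expression in cDC1s.

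Other genes of the pathway were read from lists by role. Of 10 names listed for further ligands and soluble inhibitors, 7 were in the matrices and only *Il18bp* had enough counts to be tested. The names not found, *Il36a*, *Il36b* and *Il36g*, are other symbols of *Il1f6*, *Il1f8* and *Il1f9*, which were found, so no gene of the list was missing. *Il18bp*, which encodes a soluble inhibitor of IL-18, was at 2.22 ± 0.0185 CPM in the *C1qa* group, 1.25 ± 0.0902 CPM in the *Cd209a* group and 1.16 ± 0.244 CPM in cDC1s, and was higher in the *C1qa* group than in either (log2 0.76 and 0.80). All 6 listed receptor genes were tested, and 5 were higher and 1 lower than in cDC1s in both gated groups. Of all genes, 33.9% were higher and 32.9% lower in the *C1qa* group, and 30.6% higher and 27.9% lower in the *Cd209a* group. *Il1rl1*, which encodes the IL-33 receptor chain, was at 11.4 ± 2.02 CPM in the *C1qa* group, 15.7 ± 1.85 CPM in the *Cd209a* group and 0.227 ± 0.125 CPM in cDC1s (log2 5.35 and 5.83 against cDC1s). *Il18rap*, a chain of the IL-18 receptor, was at 19.5 ± 1.49, 20.1 ± 1.82 and 1.21 ± 0.433 CPM in these populations (log2 3.89 and 3.96), and *Il18r1*, the other chain, at 2.95 ± 0.704, 7.54 ± 2.30 and 0.754 ± 0.424 CPM (log2 1.78 and 3.14). Of these 3 populations, cDC1s were highest in *Il18* and lowest in both chains of its receptor. NK cells carry that receptor. The sort left out cells that stained for NK1.1, yet the NK list stood at 723, 819 and 752 CPM in the *Cd209a* group, of which *Klrd1* made up 577 CPM on average, and the part of NK transcripts in *Il18r1* and *Il18rap* was not tested. *Sigirr*, an inhibitory family receptor, was the gene lower in the gated groups, at 8.37 ± 0.778, 14.8 ± 0.509 and 21.0 ± 0.743 CPM (log2 -1.51 and -0.67 against cDC1s). Between the gated groups 4 of 6 receptors were lower in the *C1qa* group (*Il1r1*, *Il1rl1*, *Il18r1*, *Sigirr*) and 0 higher, where 17.7% of all genes were lower and 18.3% higher. The library levels of *Il1r1* overlapped. The median log2 fold change of the receptors was 3.998 and 4.57 against cDC1s and -0.66 between the gated groups, against 0.00, 0.01 and 0.00 for all genes. In cDC1s *Il1r1* (0.0399 CPM), *Il1rl2* (0.0487 CPM) and *Il1rl1* were near 0 and were tested through the gated groups, where they were high. Their folds against cDC1s, and the medians that rest on them, are taken over almost no counts and are not exact.

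Of 11 signalling genes, 2 were higher and 3 lower in the *C1qa* group than in cDC1s, where 33.9% of all genes were higher and 32.9% lower. In the *Cd209a* group 1 was higher and 3 lower than in cDC1s (30.6% and 27.9% of all genes). Between the *C1qa* and the *Cd209a* group 2 were higher and 1 lower (18.3% and 17.7%). The medians were -0.04, -0.01 and 0.01, against 0.00, 0.01 and 0.00 for all genes. *Irak3*, an inhibitor of signalling below MyD88, was at 15.5 ± 0.574 CPM in the *C1qa* group, 7.89 ± 0.663 CPM in the *Cd209a* group and 0.978 ± 0.373 CPM in cDC1s (log2 3.78 and 2.81 against cDC1s). *Myd88*, the adaptor itself, had the opposite order of populations, at 67.2 ± 5.51, 88.1 ± 3.52 and 114 ± 5.06 CPM (log2 -0.94 and -0.54). Of 17 genes listed as inflammasome sensors, adaptor and related genes, 16 were tested. In the *C1qa* group 11 were higher and 3 lower than in cDC1s (33.9% and 32.9% of all genes), with a median of 0.77. In the *Cd209a* group 9 were higher and 5 lower (30.6% and 27.9%), with a median of 0.40. Between the gated groups 4 were higher and 4 lower (18.3% and 17.7%), with a median of 0.03. The list also holds *Nlrc3*, *Nlrx1*, *Nek7*, *Txnip*, *P2rx7*, *Panx1* and *Brcc3*, which are neither inflammasome sensors nor the adaptor. *Pycard*, which encodes the adaptor ASC, was at 296 ± 13.3 CPM in the *C1qa* group, 356 ± 18.2 CPM in the *Cd209a* group and 159 ± 9.58 CPM in cDC1s (log2 0.73 and 1.004). *Aim2*, the sensor of cytosolic DNA, was lower in both gated groups (45.6 ± 1.414 and 49.0 ± 1.42 CPM) than in cDC1s (56.5 ± 4.85 CPM, log2 -0.48 and -0.37). *Naip2* stood out in the *C1qa* group, at 45.4 ± 1.31 CPM against 17.1 ± 1.76 CPM in the *Cd209a* group and 11.1 ± 0.886 CPM in cDC1s (log2 1.86 and 0.46). *Naip2*, *Naip5* and *Naip6* are close copies of each other, and so are *Nlrp1a* and *Nlrp1b*, so reads they share make their counts uncertain. *P2rx7*, an ATP receptor upstream of *Nlrp3*, was higher in the *C1qa* group (log2 0.94) and lower in the *Cd209a* group (log2 -0.49) than in cDC1s. Of 6 caspase and pore genes 5 were tested. In the *C1qa* group 3 were higher and 1 lower than in cDC1s (33.9% and 32.9% of all genes). In the *Cd209a* group 3 were higher and 0 lower (30.6% and 27.9%), and between the gated groups 1 was higher and 1 lower (18.3% and 17.7%). The medians were 0.55, 0.67 and -0.09. *Ninj1*, a gene of membrane rupture, was at 53.0 ± 1.24, 31.7 ± 0.311 and 10.2 ± 1.15 CPM (log2 2.22 and 1.49), and *Casp8* at 83.4 ± 4.33, 78.6 ± 1.34 and 39.5 ± 0.634 CPM (log2 0.90 and 0.83). The lower call of *Gsdmd* in the *C1qa* group (log2 -0.15) was smaller than the shift of the median gene without TMM factors. Library levels overlapped for *Irak1*, *Tab2*, *Brcc3* and *Gsdmd* in the *C1qa* group against cDC1s, and for *Irak1* and *Brcc3* in the *Cd209a* group, although these genes were called lower. The same held between the gated groups for *Gsdme*, the lower gene among caspase and pore genes there (log2 -0.27).

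Within cDC1s the deposited clusters were grouped after the study's states as early (1 and 4), resting (0, 2, 3, 5 and 6) and activated (7, 8, 9 and 10). Cluster 11, with 19, 29 and 12 cells and a median of 2004, 2506 and 2478 UMIs, was left out of these groups. Genes that check the clusters were *Isg15* (1394 CPM) and *Ifit2* (313 CPM) for cluster 7, *Ccr7* (2001 CPM) and *Il12b* (1856 CPM) for cluster 8, *Nfkbiz* (436 CPM) and *Tnfaip3* (403 CPM) for cluster 9 and *Cxcl9* (4832 CPM) and *Cxcl10* (1824 CPM) for cluster 10, each at its highest mean of the 12 clusters there. *Creld2* (293 CPM) was highest in cluster 5, where *Hspa5* (2666 CPM) was exceeded by cluster 11 (3647 CPM). *S100a4* and *S100a6*, which check the early clusters, were highest in cluster 4 (730.3 and 1364 CPM), but in cluster 1 (193 and 767 CPM) they were lower than in cluster 10 (364 and 1233 CPM). As the same transcripts had defined the clusters, levels are described with no test, and groups are called apart where the 3 libraries of each do not overlap.

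Early cDC1s differed from resting ones in 6 of 6 genes that reached 10 CPM in either state. There were 5 higher and 1 lower, where 26.9% of all genes at that level were higher and 28.0% lower. The mean of *Il1a*, counted as higher, reached 10 CPM in early cDC1s alone, so this gene entered the count through the state where it was high.
*Il1r2* was at 145, 159.9 and 186 CPM in early cDC1s against 38.1, 47.4 and 38.9 CPM in resting ones, a log2 ratio of the means of 1.98. *Il1b* was at 3785, 3072 and 2869.87 CPM against 1748, 1782 and 1352 CPM (log2 0.99), and *Il1a* at 12.4, 9.85 and 15.2 CPM against 2.65, 5.65 and 4.41 CPM (log2 1.56). *Il18* was the lower gene, at 28.7, 28.3 and 41.7 CPM in early and 93.4, 103 and 96.8 CPM in resting cDC1s (log2 -1.57). *Nlrp3* was at 60.1 ± 4.81 CPM in early and 40.6 ± 5.94 CPM in resting cDC1s (SD, n = 3, log2 0.57), and *Casp1* at 37.8 ± 4.21 and 24.5 ± 1.07 CPM (log2 0.63). *Il1rn* and *Il1rap* stayed below 10 CPM in both states. In these 6 genes early cDC1s differed from resting ones in the direction in which the gated groups differed from cDC1s. The monocyte list was also higher in early (1109.89, 1180.15 and 1241 CPM) than in resting cDC1s (609.85, 696 and 665 CPM), with *Plac8* the most abundant of its 7 genes and none at 0, while the macrophage list was at 89.5, 57.2 and 90.9 CPM against 52.1, 38.1 and 42.6 CPM, with *Mertk* at 0 in early cDC1s. The NK list was at 161, 214 and 185 CPM in early and 44.3, 80.5 and 47.2 CPM in resting cDC1s, with *Klrd1* the most abundant gene. The cDC2 list of 6 genes was at 72.5, 70.4 and 82.4 CPM in early and 23.9, 23.0 and 22.1 CPM in resting cDC1s, and the pDC list of 3 genes, led by *Siglech*, at 14.1, 17.8 and 18.7 CPM against 4.4, 6.17 and 5.01 CPM. Lists of the cells' own type were lower in early cDC1s, with the cDC1 list at 1605, 1751 and 1581 CPM against 2515, 2473 and 2373 CPM and the pan-cDC list at 299, 307 and 294 CPM against 408, 381 and 398 CPM. The part of these transcripts in the result was not tested.

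Activated cDC1s were apart from resting ones in 2 of 5 genes at 10 CPM or more. *Casp1* was higher in activated cDC1s (27.6, 28.3 and 30.2 CPM) than in resting ones (25.7, 23.6 and 24.1 CPM, log2 0.23), where 19.2% of genes were higher. With cells thinned to 3000 UMIs no gene of the 8 at 10 CPM or more was higher without overlap. *Il18* was lower, at 82.6, 70.4 and 83.5 CPM (log2 -0.31), where 30.6% of genes were lower. *Il1b* was at 2437, 2159.58 and 1635 CPM in activated cDC1s and overlapped the resting range, as did *Il1r2* and *Nlrp3*. Marker lists also differed between these states. The macrophage list was at 176, 65.2 and 93.1 CPM in activated cDC1s, led by *Apoe* and with *Mertk* at 0, the monocyte list at 910.5, 1169 and 1181 CPM, led by *Plac8*, and the cDC2 list at 45.5, 25.9 and 30.8 CPM, led by *Mgl2*, each above all resting libraries. So were the T cell list (5.82, 11.8 and 6.78 CPM), led by *Cd8a*, and the tumour and fibroblast list (2.59, 2.83 and 2.77 CPM), led by *Col1a2*. The neutrophil list, led by *Csf3r*, was near 0 but also above all resting libraries (0.647, 0.706 and 0.308 CPM). The neutrophil list and the tumour and fibroblast list rest on few UMIs, and their order is not read as a difference between the states. The cDC1 list (2112, 2001 and 2005 CPM) and the pan-cDC list (332, 332 and 343 CPM) lay below all resting libraries. Their part in the levels of *Casp1* and *Il18* was not tested.

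**Figure D2:**
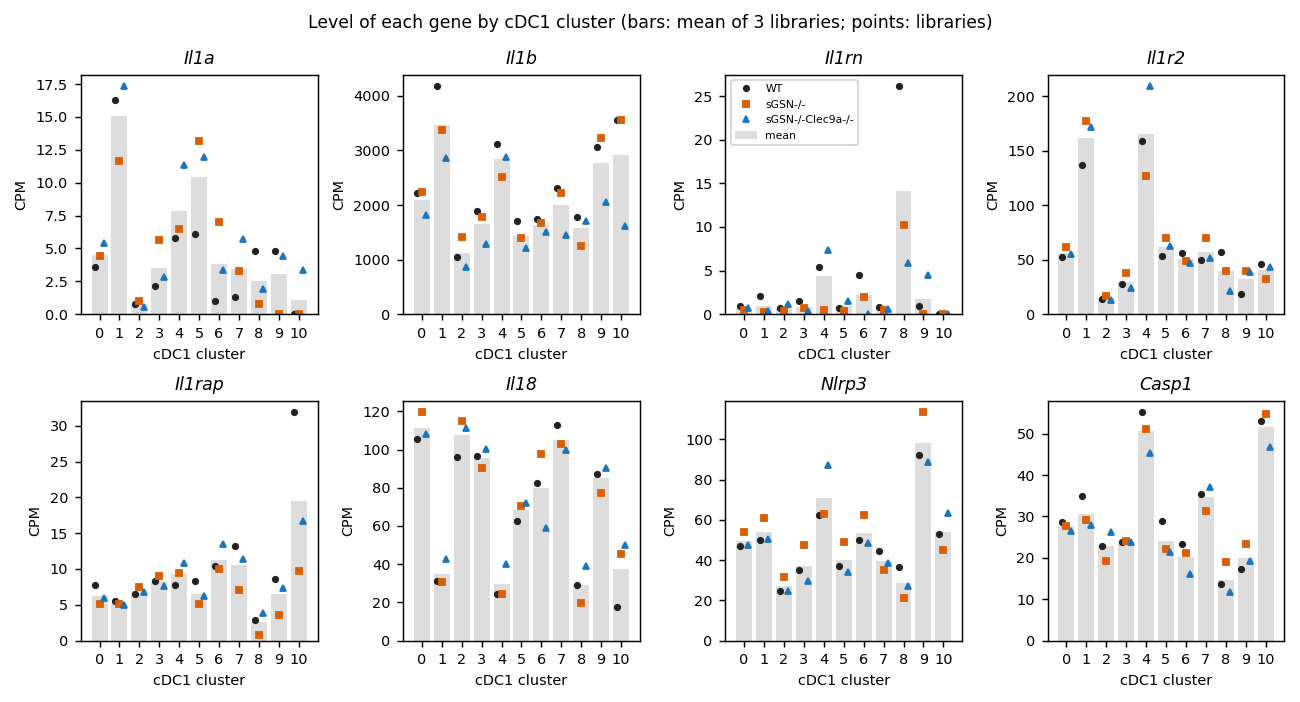
CPM of each gene in cDC1 clusters 0 to 10. Bars are means of the 3 libraries and points are the libraries, and *Nlrp3* is highest in cluster 9 (98.2 CPM) and *Il1r2* in clusters 4 (165 CPM) and 1 (162 CPM).

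The states hid differences between single clusters, which are given for clusters 0 to 10. Cluster 11, with few cells and UMIs, was at 295 ± 49.9 CPM of *Il1r2* (42 UMIs), 145 ± 86.6 CPM of *Nlrp3* (20 UMIs) and 27.3 ± 36.7 CPM of *Il1rap* (4 UMIs), the highest mean of the 12 clusters for each, and held 0 *Il18* UMIs. Among clusters 0 to 10, *Il1a* was highest in cluster 1 (15.1 ± 3.02 CPM, SD, n = 3), followed by clusters 5 (10.4 ± 3.77 CPM) and 4 (7.87 ± 3.01 CPM), whose libraries overlapped from each to the next and lay apart from cluster 0 (4.47 ± 0.919 CPM), while cluster 6 reached 7.04 CPM, into the range of clusters 5 and 4. From cluster 0 to the lowest, cluster 2 (0.788 ± 0.215 CPM), each neighbour in the order overlapped the next. *Il1r2* was at 159, 127 and 209.6 CPM in cluster 4, against 137, 177 and 172 CPM in cluster 1. These clusters overlapped each other and lay apart from all others, of which cluster 5 (62.0 ± 8.22 CPM) came next. The means then ran 7, 0, 6, 10, 8, 9 and 3, where neighbours overlapped except 6 and 10, and cluster 8 (21.3 to 57.2 CPM) reached into the range of clusters 5, 7, 0 and 6. A gap lay between these and cluster 2 (14.6 ± 1.77 CPM), 11.3-fold below cluster 4. *Il1b* was highest in cluster 1 (4181, 3374 and 2862 CPM) and lowest in cluster 2 (1054, 1423 and 867 CPM), a 3.12-fold range of the means in which all neighbours of the order 1, 10, 4, 9, 0, 7, 3, 6, 8, 5, 2 overlapped. *Il18* ran from cluster 0 (111 ± 7.44 CPM) over 2, 7, 3, 9, 6 and 5 (68.2 ± 4.81 CPM), with overlap at each step, and a gap lay between cluster 5 and clusters 10, 1, 4 and 8 (29.2 ± 9.57 CPM in cluster 8). *Casp1* was at 53.2, 54.8 and 46.9 CPM in cluster 10, against 55.2, 51.1 and 45.3 CPM in cluster 4, apart from cluster 7 (34.6 ± 3.001 CPM) and all others down to cluster 8 (14.7 ± 3.76 CPM), whose neighbours overlapped. In cluster 4 the counting interval of *Casp1* was also above that of the *Ncr1* group in each library, while in cluster 10, with 15, 17 and 14 *Casp1* UMIs, it overlapped.

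The activated clusters 8, marked by *Ccr7* and *Il12b*, and 10, marked by *Cxcl9* and *Cxcl10*, were set side by side. Of 7 genes at 10 CPM or more, *Il1rap*, *Nlrp3* and *Casp1* were lower in cluster 8, where 25.5% of genes were. *Il1rap* reached a mean of 10 CPM in cluster 10 alone, so it was counted through the cluster where it was high and is not read as lower from this. *Il1rn* met the rule for higher, where 17.1% of genes did, but against 0 UMIs in cluster 10, and is not read as higher from this. *Casp1* was at 13.6, 18.9 and 11.6 CPM in cluster 8 (log2 -1.81 against cluster 10), *Nlrp3* at 36.8, 21.3 and 27.2 against 53.2, 45.1 and 63.6 CPM (log2 -0.93) and *Il1rap* at 2.91, 0.787 and 3.88 against 31.9, 9.67 and 16.7 CPM (log2 -2.94). *Il1rap* rested on 3, 1 and 2 UMIs in cluster 8 and on 9, 3 and 5 in cluster 10, and the counting intervals of the clusters were apart in each library for *Casp1*, in WT alone for *Il1rap* and in no library for *Nlrp3*. *Il1b* was at 1783, 1254 and 1712 CPM in cluster 8, against 3558, 3561 and 1609.94 CPM in cluster 10, where the sGSN-/-Clec9a-/- library lay among the values of cluster 8. A few cells carried much of this *Il1b* in cluster 8, as the 10% of cells with the most held 56.4%, 54.7% and 51.5% of its UMIs, and 1 WT cell held 19.4%. The median cell held 6, 1 and 1 *Il1b* UMIs in cluster 8 and 50, 26 and 11 in cluster 10. *Il1r2* and *Il18* overlapped between the clusters, and *Il1a* stayed below 10 CPM. The monocyte list, led by *Plac8* in both, was at 313, 533 and 332 CPM in cluster 8, against 1173, 1241 and 1192 CPM in cluster 10, and the cDC1 list at 1142, 1122 and 1232 CPM, against 1800.1, 1962 and 1811 CPM. Their part in the lower levels was not tested. Cluster 8 held 84, 114 and 57 cells and cluster 10 held 21, 27 and 28, so the levels of cluster 10 rest on few UMIs.

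*Il1rn* in cluster 8 was the only mean level of this gene above 10 CPM among clusters 0 to 10, at 26.2, 10.2 and 5.82 CPM. This mean (14.1 ± 10.7 CPM, SD, n = 3) was carried by WT and lies below 10 CPM without that library. Cluster 4 came next (4.43 ± 3.54 CPM) and overlapped cluster 8, and each later neighbour overlapped down to cluster 7 (0.64 ± 0.211 CPM). In cluster 10 no *Il1rn* UMI was counted, which at a floor of 3 UMIs per library allows up to 10.6, 9.67 and 10.04 CPM. The interval of cluster 8 lay above this floor in WT (17.2 to 38.1 CPM) and held it in sGSN-/- (5.45 to 17.5 CPM) and in sGSN-/-Clec9a-/- (1.2 to 17.01 CPM), so a difference from cluster 10 was not detectable at this depth in the last 2 libraries. The counts were small, with 27 *Il1rn* UMIs in 15 of 84 WT cells, 13 in 6 of 114 sGSN-/- cells, of which 8 lay in 1 cell, and 3 in 3 of 57 sGSN-/-Clec9a-/- cells. The macrophage list was at 474, 55.1 and 67.9 CPM in cluster 8, with *Apoe* the most abundant of its 8 genes (103 CPM) and *Mertk* at 0. In cells of cluster 8 without any UMI of these markers or of *C1qa* (37, 68 and 34 cells), *Il1rn* was at 37.2 CPM (95% interval 19.8 to 63.5), 14.0 CPM (6.7 to 25.7) and 6.77 CPM (0.819 to 24.4), from 13, 10 and 2 *Il1rn* UMIs in 6, 3 and 2 cells. This choice of cells was not planned, and it favours cells with fewer UMIs. In WT it kept 349835 of the 1032186 UMIs of the cluster. Without cDC1s that carry a *C1qa* UMI, an alternative chosen after seeing the data, *Il1rn* was at 28.4, 10.4 and 6.0 CPM. The part of macrophage RNA in these counts was not tested.

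Clusters 9, marked by *Nfkbiz* and *Tnfaip3*, and 7, marked by *Isg15* and *Ifit2*, differed most in *Nlrp3* among the genes at 10 CPM or more. *Nlrp3* was at 92.2, 114 and 88.8 CPM in cluster 9, against 44.7, 35.0 and 38.8 CPM in cluster 7 (log2 1.31), and cluster 9 lay apart from all others of clusters 0 to 10, of which cluster 4 (70.9 ± 14.1 CPM) came next, and overlapped cluster 11 (69.0 to 239 CPM). From there the order ran 10, 1, 6, 0, 5, 7, 3, 8 and 2 (27.0 ± 4.12 CPM), with overlap at each step. Of 6 genes at 10 CPM or more it was the 1 higher gene, where 21.5% of all genes were higher, and *Il1r2*, *Il18* and *Casp1* were lower in cluster 9, where 17.8% were. *Il1r2* was at 18.2, 39.7 and 38.5 CPM in cluster 9, against 49.6, 69.6 and 51.3 CPM in cluster 7 (log2 -0.82), and *Casp1* at 17.3, 23.4 and 19.2 against 35.5, 31.3 and 37.0 CPM (log2 -0.79). *Il18* differed less, at 87.4, 77.5 and 90.3 against 113, 103 and 99.7 CPM (log2 -0.30). *Il1b* was at 3063, 3219 and 2051 CPM in cluster 9 and overlapped cluster 7 (log2 0.48). The monocyte list was at 410.1, 449 and 489.9 CPM in cluster 9, led by *Ccr2*, against 1377, 1731 and 1695 CPM in cluster 7, led by *Plac8*. The macrophage list was at 49.0, 34.2 and 37.0 CPM in cluster 9, led by *Apoe*, against 109.6, 78.6 and 120.3 CPM in cluster 7, led by *Fcgr1*, with *Mertk* at 0 in both. Higher in cluster 9 were the cDC2 list, at 39.4, 32.4 and 39.96 against 28.1, 18.5 and 18.8 CPM, and the pan-cDC list, at 352, 407 and 379 against 341, 325 and 344 CPM. The part of these transcripts in the differences was not tested. Among clusters 0 to 10, the mean of *Il1rap* ran from cluster 10 (19.4 ± 11.4 CPM) over 6, 7, 4, 3, 2, 9, 5, 0 and 1 (5.18 ± 0.355 CPM) to cluster 8 (2.52 ± 1.58 CPM). Neighbours in this order overlapped except 3 and 2 and except 1 and 8, while clusters 9, 5 and 0 overlapped cluster 3, and cluster 8 overlapped cluster 9.

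The genes with the most similar profile over clusters 0 to 10 were sought by Pearson's r of log2(mean CPM + 1) among 4696 genes with a mean of at least 20 CPM. The 11 clusters share libraries and depth, and r is given as a description. *Il1a* was most like *Tpst2* (r = 0.866), *Ube2j1* (0.863) and *Pofut2* (0.855), and *Il1r2* most like *Neurl3* (0.928), *Smim3* (0.921) and *Tpst2* (0.910), so that *Tpst2* was in both lists. *Il1b* was nearest to *Itgax* (0.806), *Entpd1* (0.787) and *Lsm8* (0.769), and *Il18* to *4930455G09Rik* (0.937), *Pianp* (0.914) and *F2rl2* (0.907). For *Nlrp3* the genes were *Usp14* (0.869), *Ncl* (0.798) and *Map2k3* (0.795), and for *Casp1* they were *Stap1* (0.940) and *Ms4a6c* (0.920). *Il1rn* came out with *Psip1* (0.931), *Osbpl8* (0.928) and *Cep83* (0.921), and *Il1rap* with *Synj2bp* (0.940), *Sdcbp* (0.938) and *Arid5b* (0.9305), although most clusters held few UMIs of either. Of the 24 pairs of a gene and its neighbour found by this rule, 4 stayed among the nearest 3 when Spearman's rho took the place of r. Among the 8 genes themselves, *Il1a* and *Il1r2* were the most alike pair (r = 0.837, Spearman's rho 0.8), followed by *Il1b* and *Nlrp3* (r = 0.763, rho 0.782). By r, *Il1rn* and *Il1rap* (r = -0.644, rho -0.345) and *Il1r2* and *Il18* (r = -0.565, rho -0.391) ran most against each other, and by rho it was *Il1rn* with *Il18* (r = -0.498, rho -0.609) and with *Casp1* (r = -0.461, rho -0.555).

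The genotypes were compared to ask whether loss of secreted gelsolin, and then of DNGR-1, went with other levels of these genes. With 1 library per genotype there is no test and no replicate check, and the intervals of the ratios cover counting error only. In cDC1s, of 4 genes at 50 CPM or more in either library, 0 passed 1.5-fold between sGSN-/- and WT, where 0.595% of all such genes did, and 0 of 4 between sGSN-/-Clec9a-/- and sGSN-/-, where 1.18% did. In the *C1qa* group 0 of 5 passed between sGSN-/- and WT (1.14% of genes), and 1 of 5 between sGSN-/-Clec9a-/- and sGSN-/- (0.592% of genes). That gene was *Il1a*. In this comparison it reached 50 CPM in sGSN-/- alone, so it was counted through the library where it was high, and the count is not read as a result. The 46.4 CPM of *Il1a* in sGSN-/-Clec9a-/- lay below the 71.5 CPM of sGSN-/- (log2 ratio -0.62, 95% interval -0.74 to -0.51) after a ratio of 0.47 (0.37 to 0.58) between sGSN-/- and WT, so the sGSN-/- library stood above both others in the whole group. This did not hold at every *C1qa* level, as sGSN-/- was the lowest library in cells with 100 or more *C1qa* UMIs (51.2, 41.95 and 54.3 CPM) and just outside the gate (36.0, 26.0 and 39.0 CPM). In the other barcodes the *Il1a* ratios also had the opposite signs (-0.70 and 0.56). In the *Cd209a* group 0 of 4 passed between sGSN-/- and WT (0.85% of genes) and 0 of 3 between sGSN-/-Clec9a-/- and sGSN-/- (1.04% of genes).

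**Figure D3:**
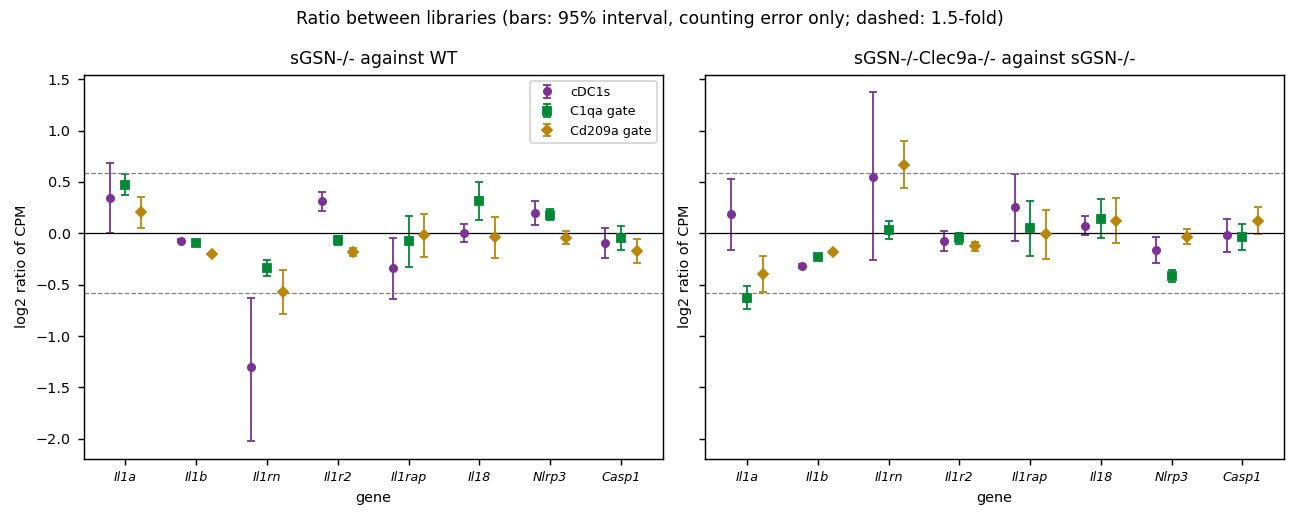
Log2 ratio of CPM between genotypes for each gene in cDC1s, the *C1qa* group and the *Cd209a* group, with exact 95% intervals for counting error and dashed lines at 1.5-fold. Between sGSN-/-Clec9a-/- and sGSN-/-, *Il1b* lies below 0 in all 3 populations (-0.32, -0.23 and -0.18).

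*Il1b* was lower in sGSN-/- than in WT in cDC1s (log2 ratio -0.07, interval -0.09 to -0.05), the *C1qa* group (-0.09) and the *Cd209a* group (-0.20), and lower again in sGSN-/-Clec9a-/- than in sGSN-/- (-0.32, -0.23 and -0.18). The steps had the same direction in these 3 populations and were under 1.5-fold. The populations come from the same 3 libraries, so their agreement does not repeat a genotype. The pools also differed in sex, with 25 males of 37 mice in WT, 15 of 31 in sGSN-/- and 10 of 27 in sGSN-/-Clec9a-/-. Sex and genotype cannot be told apart here. Between sGSN-/-Clec9a-/- and sGSN-/- the *Il1b* ratio was also below 0 in clusters 0 to 3, 5 to 7, 9 and 10, and lowest in clusters 2 (-0.71), 7 (-0.61), 9 (-0.65) and 10 (-1.15). The share of all genes past 1.5-fold was not computed by cluster, so the size of these ratios is not read as a result. Cluster 9 held 40 sGSN-/- and 55 sGSN-/-Clec9a-/- cells, and the highest cell held 14.3% and 7.72% of the *Il1b* UMIs. In cluster 10 it was 27 and 28 cells, with 16.8% and 21.8% in the highest cell. Elsewhere *Il1b* went the other way, with a log2 ratio of sGSN-/-Clec9a-/- to sGSN-/- of 0.52 in the *Ncr1* group, 0.029 in the other barcodes, 0.20 in cluster 4 and 0.45 in cluster 8, where the median cell held 1 *Il1b* UMI in both libraries, and a log2 ratio of sGSN-/- to WT of 0.027 (0.0040 to 0.051) in resting cDC1s and 0.43 in cluster 2. *Nlrp3* in the *C1qa* group was higher in sGSN-/- than in WT (0.18, 0.13 to 0.23) and lower in sGSN-/-Clec9a-/- than in sGSN-/- (-0.41, -0.47 to -0.35), the directions of *Il1a* there, while in the *Cd209a* group its intervals held 0 in both comparisons. In cDC1s *Nlrp3* was also highest in sGSN-/- (50.2 CPM) and lowest in WT (43.8 CPM). *Il1rn* in the *C1qa* group went the other way, highest in WT (136 CPM) and lowest in sGSN-/- (108 CPM). *Il18* in the sum of cDC1s was level between sGSN-/- and WT (0.00, -0.09 to 0.09) and between sGSN-/-Clec9a-/- and sGSN-/- (0.07, -0.02 to 0.17). Within cDC1s the second *Il18* ratio differed, at 0.56 (0.25 to 0.86) in early and -0.08 in resting cDC1s, 0.73 in cluster 4 and -0.72 in cluster 6. *Il1r2* in cDC1s was higher in sGSN-/- than in WT (0.31, 0.22 to 0.41), and early cDC1s, which carried more *Il1r2*, made up 21.4%, 25.2% and 22.8% of the cDC1s of the libraries. Within the states this *Il1r2* ratio was 0.14 (0.0072 to 0.27) in early, 0.32 (0.16 to 0.47) in resting and 0.30 (0.021 to 0.58) in activated cDC1s, and it was 0.37 in cluster 1 and -0.32 in cluster 4. With clusters 0 to 10 weighted equally the *Il1r2* ratio was 0.10, and with cells thinned to 3000 UMIs it was 0.47. *Il1rn* lay below 50 CPM in the *Cd209a* group and was not counted there, with log2 ratios of -0.57 (-0.78 to -0.36) and 0.67 (0.44 to 0.90). The intervals of *Casp1* and *Il1rap* held 0 in cDC1s and in the *C1qa* group, except for *Il1rap* in cDC1s between sGSN-/- and WT (-0.34, -0.64 to -0.05).

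The 8 genes lie on 5 chromosomes of GRCm38 by the GENCODE annotation matched by identifier. *Il1a* (ENSMUSG00000027399, chromosome 2, 129299610 to 129309972, minus strand) overlaps *Gm14023* on the plus strand, and *Il1b* (ENSMUSG00000027398, chromosome 2, 129364570 to 129371139, minus strand) overlaps *Il1bos* on the plus strand. *Il1rn* (ENSMUSG00000026981, chromosome 2, 24336853 to 24351494, plus strand), *Nlrp3* (ENSMUSG00000032691, chromosome 11, 59541568 to 59566956, plus strand) and *Casp1* (ENSMUSG00000025888, chromosome 9, 5298517 to 5307265, plus strand) overlap no annotated gene. *Il1r2* (ENSMUSG00000026073, chromosome 1, 40074079 to 40125231, plus strand) overlaps *Gm16894* on the minus and *Gm37347* on the plus strand, and *Il1rap* (ENSMUSG00000022514, chromosome 16, 26581704 to 26730117, plus strand) overlaps *Gm20319* on the minus strand. *Il18* (ENSMUSG00000039217, chromosome 9, 50554827 to 50581840, plus strand) overlaps *Bco2* and *Tex12* on the minus strand. The sources used here do not say whether the counting used strand, and reads of such a gene and its overlapping partner may not be told apart.

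*Il1a* and *Il1b* are neighbouring ligand genes that were both higher in early than in resting cDC1s and in the gated groups, and their promoters are shown for this reason. Both are the 250 bases before the RefSeq start of the gene in GRCm38.p6, read 5′ to 3′ on the minus strand, at chr2:129309973-129310222 for *Il1a* and chr2:129371140-129371389 for *Il1b*, and the second window lies inside annotated *Il1bos* on the plus strand. The TATAAA motif is in capitals and begins 32 bases before the start of *Il1a* and 31 before that of *Il1b*.
Il1a: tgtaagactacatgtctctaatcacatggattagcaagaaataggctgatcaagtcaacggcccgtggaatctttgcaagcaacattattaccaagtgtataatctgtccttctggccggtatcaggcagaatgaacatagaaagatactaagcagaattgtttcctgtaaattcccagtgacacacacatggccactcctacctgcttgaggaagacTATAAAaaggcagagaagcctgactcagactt
Il1b: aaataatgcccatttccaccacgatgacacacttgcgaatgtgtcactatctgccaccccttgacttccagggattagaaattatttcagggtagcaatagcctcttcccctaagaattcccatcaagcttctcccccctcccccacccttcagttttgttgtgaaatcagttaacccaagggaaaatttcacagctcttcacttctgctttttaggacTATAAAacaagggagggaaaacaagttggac
All 8 genes had a RefSeq promoter, and 3 motifs were searched on both strands in the 250 bases before each start, where *Il1rn* has 3 starts, *Nlrp3* 2 and each other gene 1. A gene is counted if any of its starts held the motif. TATAAA was in 3 of 8 (*Il1a*, *Il1b* and *Il18*), against 12.4% of 32851 promoters of the same length. The C/EBP motif TTNCNNAA was in 4 of 8 (*Il1a*, *Il1b*, *Il1rn* at 2 of its 3 starts and *Nlrp3* at 2 of 2), against 36.8%, and the κB motif in 1 of 8 (*Nlrp3* at 1 of 2), against 7.25%. These percentages are per promoter, so genes with several starts had more chances to hold a motif. No match overlapped another motif, and a match describes letters in a window and no binding.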

How the data were processed

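The authors aligned the reads to mm10 (GRCm38) with Cell Ranger (6.0.1 per the matrix headers) and deposited unnormalised UMI counts of each gene in each barcode. Their table of cDC1s, made with Seurat, whose version the sources give differently, gives clusters, counts per cell and a UMAP score in 2 columns, which were not used. UMIs were summed per library and population (9 sums, 6 residual degrees of freedom) and tested with edgeR 4.0.16 (TMM, filterByExpr, quasi-likelihood test, Benjamini-Hochberg threshold 0.05) in R 4.3.3, tested on simulated data. Cells were handled in Python 3.11.15 with scanpy 1.11.5. Alternatives were library size without TMM factors, DESeq2 1.42.0, no filter on low counts, the library as replicate block, each library left out, no high Scrublet scores, a quality filter, stricter gates, thinning to 3000 UMIs, clusters weighted equally, no cluster 11, pooled UMIs and Spearman's rho. Sums of the same library come from 1 pool and so pair by design, and their deviations correlated at r = 0.23 to 0.408 (WT), 0.243 to 0.255 (sGSN-/-) and 0.244 to 0.281 (sGSN-/-Clec9a-/-). Genes named are the 8 genes, the pathway, marker and cluster lists, and for each of the 8 the 3 genes with the highest Pearson's r over clusters, of which 1 is not reported here. The members and lists were chosen with earlier results of these data known.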

Additional observations from a re-analysis of the deposited data

Results flagged for a closer look

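*Il1r2* moved in opposite directions between sGSN-/- and WT in the populations, with a log2 ratio of 0.31 in cDC1s against -0.069 in the *C1qa* group and -0.18 in the *Cd209a* group. With 1 library per genotype the difference between populations was not tested.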

How the results depend on the processing

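Of 264 alternative fold changes of the 8 genes, 258 kept their direction and their side of the threshold, as did 92 of 99 counts of genes called within 1.5 times, 8 of 8 counts past 1.5-fold and 23 of 24 counts of genes without overlap. Of the values with no test, 55 of 64 genotype ratios and 321 of 352 cluster levels stayed within their error, and 4 of 24 pairs of a gene and a most alike gene stayed among the nearest 3 by Spearman's rho. Thinning to 3000 UMIs left 2789 genes lower in the *C1qa* group than in cDC1s, and 4960 called, 2304 of them lower, in the *Cd209a* group, with fewer genes tested. Without TMM factors 2261 were lower in the *Cd209a* group. Without 1 library, 7419 to 7756 genes were called for the *C1qa* group against cDC1s (3785 to 3917 higher, 3619 to 3839 lower), 6224 to 6636 for the *Cd209a* group (3329 to 3471, 2895 to 3165) and 2968 to 3551 between the gated groups (1550 to 1803, 1418 to 1748). The totals were lowest without WT in both comparisons with cDC1s and without sGSN-/- between the gated groups. *Il1rap* in the *C1qa* group against cDC1s was at log2 0.025 when thinned. Between the gated groups *Il1b* was at -0.020 to 0.045 without 1 library and -0.028 with stricter gates, *Casp1* at 0.0080 when thinned, and *Il18* at 0.21 with the library as block and 0.16 to 0.35 without 1 library. The block changed no other call of the 8 genes. In cDC1s, *Il1b* between sGSN-/- and WT was at -0.11 with clusters weighted equally and -0.039 thinned, and *Il1r2* at 0.10 and 0.47. Between sGSN-/-Clec9a-/- and sGSN-/-, *Il1b* was at -0.36 with equal clusters, *Il1r2* at 0.035 with equal clusters, -0.19 without high Scrublet scores and -0.21 thinned, and *Casp1* at -0.20 thinned. Thinning left 0 of the genes higher in activated than in resting cDC1s. The causes were not tested. Leaving out cDC1s with a *C1qa* UMI was chosen after seeing the data, and leaving out cells of cluster 8 with a macrophage marker UMI was also not planned. The limits are 1 library per genotype, populations gated on 1 gene each, few UMIs of *Il1a*, *Il1rn* and *Il1rap* in cDC1s, and free RNA that could not be removed.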
